A study of Caenorhabditis elegans with 2 samples.

Results

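The genes described here are the F-box genes of the nematode families *fbxa*, *fbxb* and *fbxc* that were detected in single cells of *C. elegans* embryos. They were chosen by symbol and by level: at least 5 UMIs (unique molecular identifiers, 1 per captured transcript) summed over the cells of both libraries. Of 331 genes with such a symbol among the 20191 genes of the files, 135 met the rule, 20 of 176 *fbxa*, 86 of 106 *fbxb* and 29 of 49 *fbxc* genes. The rule used the summed level, so the level of a member is a description. It did not use the genotype or the kind of cell, but a gene could pass it through the UMIs of 1 library alone, as 4 members with none in Wild Type did. A further 46 family genes had 1 to 4 UMIs, and 150 had none, of which 126 were *fbxa* genes.

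Embryos mostly of the 100-200 cell stage were taken apart with chitinase, and their cells were captured with a 10x Genomics kit that tags the 3' ends of transcripts. In one group the embryos were F1 offspring of mothers homozygous for *spr-5(b101)* I and *met-2(n4256)* III, and are called *spr-5; met-2* mutants here. SPR-5 is a demethylase of H3K4me1/2 and MET-2 a methyltransferase of H3K9, and the mothers carried the same mutations as the embryos. The other embryos were Wild Type (N2). Each genotype gave 1 library from pooled embryos, of 686 cells in *spr-5; met-2* mutants and 219 cells in Wild Type, so no p-value is given. Intervals are 95% intervals of counting error only, and differences between genotypes cannot be told apart from differences between the libraries.

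F-box proteins are the substrate adaptors of SCF ubiquitin ligases. The F-box binds a SKP1-related protein (SKR in *C. elegans*), which joins it to the cullin CUL-1 and the RING protein RBX-1, and the rest of the F-box protein binds the target. Nematodes carry large numbers of these genes, many in tandem arrays near chromosome ends, and most *fbxa*, *fbxb* and *fbxc* genes have no assigned target. The families differ in the domain that follows the F-box.

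The libraries were unlike in depth. The cells held 732058 UMIs in *spr-5; met-2* mutants and 1013190 UMIs in Wild Type, 33.1% and 59.8% of the UMIs of their libraries. They had a median of 726.5 UMIs (411 to 5941) in *spr-5; met-2* mutants and 2086 UMIs (758 to 66767) in Wild Type. In Wild Type, 18 cells with more than 10000 UMIs held 48.6% of all UMIs, and 11 barcodes were shared by the cells of both libraries. Mitochondrial transcripts had a median share of 1.98% per cell in the mutants and 0.731% in Wild Type, and the summed ciliated neuron markers were 10.8-fold (7.10 to 17.1) as high in the mutants as in Wild Type. *spr-5* itself had 40 UMIs in *spr-5; met-2* mutants and 83 UMIs in Wild Type, and *met-2* had 20 and 64 UMIs in the same order. As 3' tags need not lie in the mutated part of a gene, these counts do not check the genotype. The part of depth, cell types and mitochondrial share in the results below was not tested, other than by the alternatives given.

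The 135 members together held 3693 UMIs in *spr-5; met-2* mutants and 3669 UMIs in Wild Type. Scaled to all UMIs, this was 5045 CPM (counts per 1000000 UMIs; 4883 to 5210) in the mutants and 3621 CPM (3505 to 3740) in Wild Type, a ratio of 1.39 (1.33 to 1.46). Members were thus higher in the mutants as a group by more than counting error. In the libraries as scaled here, most genes were higher in the mutants, with a median log2 ratio of 0.45 over the 9200 genes with at least 5 UMIs. The median over the members was 0.92, with 112 members higher and 23 lower in the mutants. Scaled to the median of the gene ratios, which moves all genes by -0.45 on the log2 scale, the summed ratio of the members was 1.02 and their median 0.47.

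Above 2-fold in the mutants were 65 members (48.1%), where 31.3% of all genes with at least 5 UMIs passed the same limit. Below 0.5-fold were 3 members, where 5.86% of all genes were. A gene at 0 in Wild Type was set to 3 UMIs for these counts. With the median scaling 49 members were above, beside 21.7% of all genes, and 9 below, beside 12.8%. Low counts scatter more, so the members were also set beside all genes in the same ranges of UMIs. With 5 to 9 UMIs, 18 of 30 members (60.0%) were above 2-fold, beside 68.1% of all genes in that range, and with 10 to 19 UMIs 16 of 30 members (53.3%) were, beside 54.8%. With 20 to 49 UMIs the count was 21 of 37 members (56.8%), beside 39.2%, and with 50 or more UMIs it was 10 of 38 (26.3%), beside 13.7%. The share of members was above that of all genes in the 2 ranges of higher counts and not in those of lower counts. Abundance was not matched within a range, and the range of 50 or more UMIs has no upper limit. The part of abundance in these differences was not tested.

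**Figure D1:**
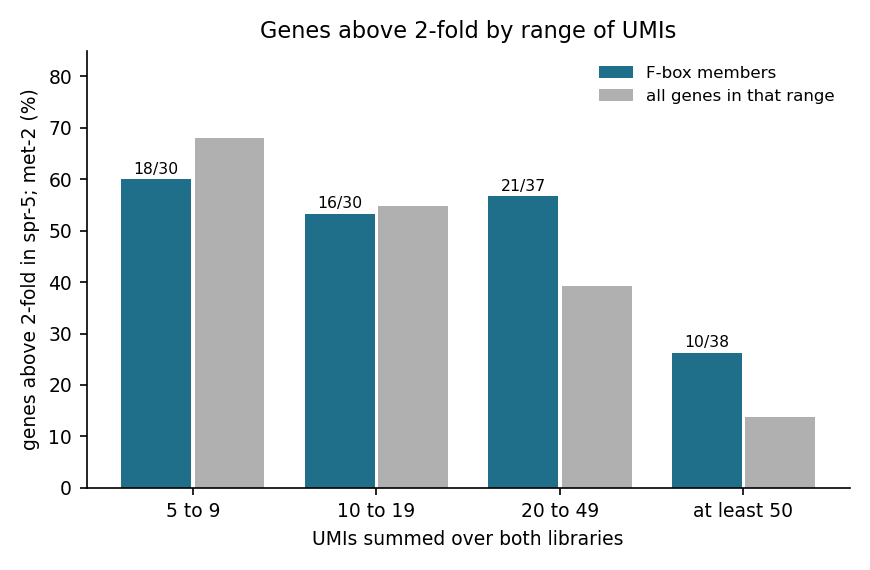
Share of genes (%) whose CPM in *spr-5; met-2* mutants was above 2-fold of Wild Type, by UMIs summed over both libraries. Blue bars are the F-box members, with their number above 2-fold of all members in the range, and grey bars are all genes in that range. Members exceeded all genes at 20 to 49 UMIs (56.8% and 39.2%) and at 50 or more UMIs (26.3% and 13.7%), and not at lower counts. The last range has no upper limit, so abundance was not matched within it.

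Pooled over members of all levels, the 3 families did not share 1 ratio. *fbxa* members held 231 UMIs in *spr-5; met-2* mutants and 132 UMIs in Wild Type, 316 and 130 CPM in the same order, a ratio of 2.42 (1.95 to 3.02). *fbxb* members, the largest group, held 3231 CPM in the mutants and 1976 CPM in Wild Type, a ratio of 1.63 (1.54 to 1.74). *fbxc* members held 1499 CPM in the mutants and 1515 CPM in Wild Type, a ratio of 0.989 (0.915 to 1.07). The intervals of these pooled ratios do not overlap, but the contrast changed with level. With 20 to 49 UMIs the ratios were 2.34 (1.61 to 3.41) for *fbxa*, 2.21 (1.90 to 2.58) for *fbxb* and 2.34 (1.70 to 3.26) for *fbxc*. With 50 or more UMIs they were 1.94 (1.32 to 2.89), 1.48 (1.38 to 1.58) and 0.895 (0.823 to 0.973). With 10 to 19 UMIs they were 5.54 (2.81 to 11.9), 2.18 (1.73 to 2.76) and 1.93 (1.09 to 3.45). The part of level in the pooled contrast was not tested. With every gene of a family counted, whether or not it met the rule, the ratios were 2.40, 1.64 and 0.991 for *fbxa*, *fbxb* and *fbxc*.

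The pooled *fbxc* value depended in part on 1 gene. *fbxc-51* alone held 542 of the 1535 *fbxc* UMIs in Wild Type, and without it the ratio of the other 28 was 1.19 (1.08 to 1.30). Of the 29 *fbxc* members 22 were higher in the mutants, with 11 above 2-fold and none below 0.5-fold. Of the 86 *fbxb* members 72 were higher, with 43 above 2-fold and 2 below 0.5-fold, and of the 20 *fbxa* members 18 were higher, with 11 above 2-fold and 1 below 0.5-fold. Above 2-fold were thus 37.9% of *fbxc*, 50% of *fbxb* and 55% of *fbxa* members, beside 31.3% of all genes. Below 0.5-fold were 5.86% of all genes, while the share of all genes that were higher was not counted. Without *fbxa-101*, the most counted *fbxa* gene of the mutants, the *fbxa* ratio was 2.29 (1.81 to 2.90).

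**Figure D2:**
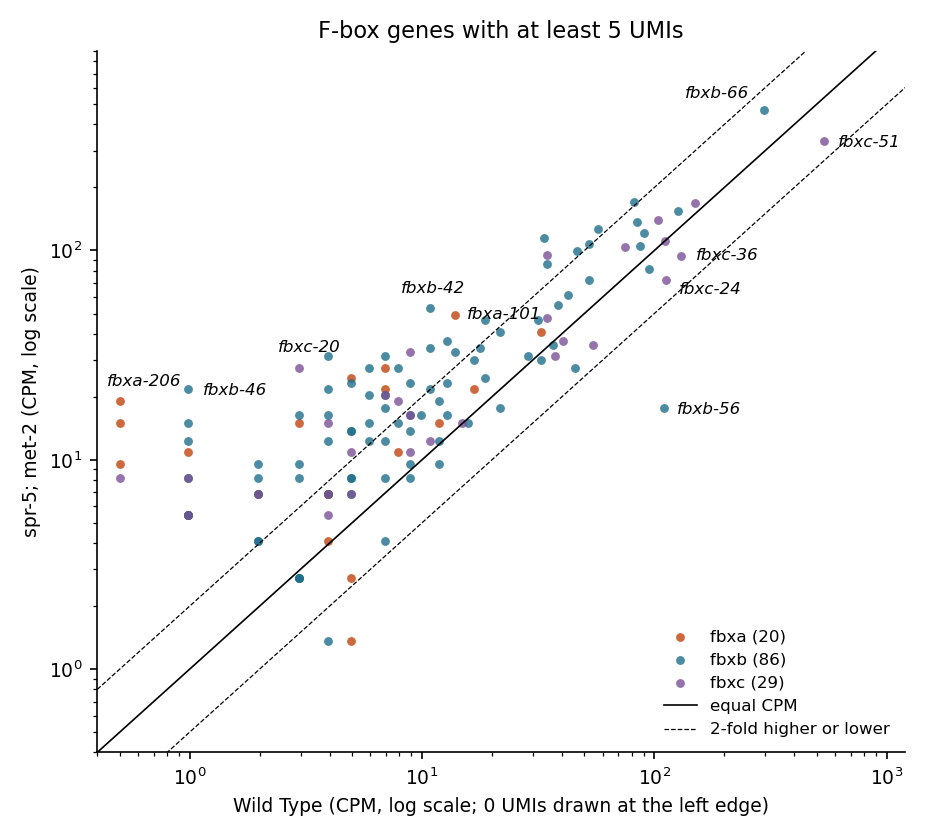
CPM of the 135 members in *spr-5; met-2* mutants (vertical, log scale) and Wild Type (horizontal, log scale), coloured by family. The solid line marks equal CPM and the dashed lines 2-fold, and the 4 members with 0 UMIs in Wild Type stand at the left edge. Most points lie above the solid line, while *fbxc-51*, *fbxc-36*, *fbxc-24* and *fbxb-56* lie below it with intervals under 1.

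Levels were steeply uneven. The median member had 17.8 CPM in *spr-5; met-2* mutants (1.37 to 467) and 7.90 CPM in Wild Type (0 to 535), and the 12 most abundant members held 41.1% of the members' UMIs in the mutants and 52.7% in Wild Type. In 3' libraries a transcript gives 1 tag whatever its length, so CPM is not scaled by length. The members just inside the rule, 11 genes with 5 UMIs, had 1 to 4 UMIs in each library. The 6 genes just outside, with 4 UMIs, were *fbxa-10*, *fbxa-192*, *fbxa-3*, *fbxa-90*, *fbxb-53* and *fbxc-47*, with 1 to 3 UMIs in each library.

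The most abundant pair differed in direction. *fbxc-51* (chromosome II, 868814 to 871699, build ce11) had 244 UMIs or 333 CPM in *spr-5; met-2* mutants and 542 UMIs or 535 CPM in Wild Type, a ratio of 0.623 (0.533 to 0.726). *fbxb-66* (chromosome I, 13423997 to 13425148) had 342 UMIs or 467 CPM in the mutants and 299 UMIs or 295 CPM in Wild Type, a ratio of 1.58 (1.35 to 1.86). *fbxc-51* was thus the leading F-box transcript in Wild Type and *fbxb-66* in the mutants. *fbxb-66* lies close to the mutated gene *spr-5*, which starts at 13438058 on chromosome I. The part of this position in its ratio was not tested. In RNA outside cells, read from barcodes with at most 200 UMIs, the ratios of both genes kept their side, at 0.738 (0.630 to 0.864) for *fbxc-51* and 1.36 (1.14 to 1.62) for *fbxb-66*. This RNA comes from the same libraries as the cells, so here and below its ratios are not a second measurement.

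Of the other 10 most abundant members, *fbxb-45* had 125 UMIs in the mutants and 83 in Wild Type, a ratio of 2.08 (1.57 to 2.79). *fbxb-35* had 100 and 85 UMIs in the same order, a ratio of 1.63 (1.21 to 2.2), and *fbxc-29* had 102 and 105 UMIs, a ratio of 1.34 (1.01 to 1.78). With the median scaling *fbxc-29* was at 0.984. *fbxc-34*, *fbxb-101*, *fbxc-40*, *fbxb-41* and *fbxb-100* had ratios between 0.992 and 1.35 with intervals that hold 1, and their side of 1 changed under at least 1 alternative each. *fbxc-36* and *fbxc-24* were lower in the mutants.

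The counting interval lay above 1 for 47 members, where it did so for 34.3% of all genes, and below 1 for 4 members, where it did so for 10.5%. Together the 47 held 2445 CPM in *spr-5; met-2* mutants and 1056 CPM in Wild Type. The 6 highest by the ranking rule, which adds 10 CPM to both levels, were *fbxa-206*, *fbxc-20*, *fbxb-46*, *fbxb-50*, *fbxb-42* and *fbxb-15*. *fbxb-15* had 84 UMIs in the mutants and 34 in Wild Type, a ratio of 3.42 (2.27 to 5.25), and was seen in 66 and 26 cells. *fbxb-42* had 39 and 11 UMIs, a ratio of 4.91 (2.46 to 10.6), which was 7.63 without doublets and 7.44 without the germline-like cluster. These 2 were also higher in the mutants' RNA outside cells, at 3.37 (2.01 to 5.96) and 2.12 (1.11 to 4.33).

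*fbxb-50* had 23 UMIs in the mutants and 4 in Wild Type, a ratio of 7.96 (2.72 to 31.7). *fbxc-20* had 20 and 3 UMIs, a ratio of 9.23 (2.74 to 48.5) that reached 16.6 with free RNA subtracted, and overlaps another gene on its strand, so its tags may be shared. *fbxb-46* had 16 UMIs in 8 mutant cells and 1 UMI in Wild Type. Outside cells its counts were 4 and 2 UMIs, a ratio of 1.41 (0.202 to 15.6), and its ratio of 22.1 (3.44 to 929) in cells rested on those 8 cells. Without cluster 8, where 2 UMIs in the mutants and 1 in Wild Type were left, it was 2.87, and with each cell weighted equally it was 130.

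Among the 4 members with no UMI in Wild Type, *fbxa-206* had 14 UMIs, *fbxa-140* 11 UMIs, *fbxa-106* 7 UMIs and *fbxc-44* 6 UMIs in the mutants. With Wild Type set to 3 UMIs, the ratio was 6.46 for *fbxa-206* and 5.07 for *fbxa-140*. These values depend on the 3 UMIs chosen and are not limits of a counting interval. Without the Wild Type cells above 10000 UMIs these ratios were 3.32 and 2.61. RNA outside cells gave 18 UMIs of *fbxa-206* in the mutants and none in Wild Type, and 14 UMIs of *fbxa-140* in the mutants and 1 in Wild Type. Both genes were thus seen in the mutant library in cells and outside them.

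*fbxa-101* was one of the genes picked for RT-PCR. It had 36 UMIs or 49.2 CPM in 32 *spr-5; met-2* cells and 14 UMIs or 13.8 CPM in 11 Wild Type cells. Its ratio was 3.56 (1.87 to 7.14) in cells and 4.47 (2.2 to 10.3) in RNA outside cells. The gene lies on chromosome I at 12958640 to 12959932, and its neighbour at 12960313 to 12961619 is *fbxa-140*, so both genes of this pair were higher in the mutants. Of the other *fbxa* members with an interval above 1 and UMIs in both libraries, *fbxa-114* had 18 UMIs in the mutants and 5 in Wild Type (ratio 4.98, 1.78 to 17.2), *fbxa-153* had 20 and 7 (3.95, 1.61 to 11), *fbxa-11* had 16 and 7 (3.16, 1.23 to 9.09), *fbxa-137* had 11 and 3 (5.07, 1.34 to 28.3) and *fbxa-46* had 8 and 1 (11, 1.48 to 491). Among the alternatives run, the ratio was between 3.15 and 16.7 for *fbxa-114*, between 2.0 and 12.6 for *fbxa-137* and up to 96.6 for *fbxa-46*. Without the Wild Type cells above 10000 UMIs no Wild Type UMI of *fbxa-46* was left. With Wild Type set to 3 UMIs its ratio was then 1.90. Counts of *fbxa* genes were small, at most 36 UMIs a gene in the mutants.

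*fbxb-56* (chromosome I, 14084512 to 14085525) stood furthest below 1. It had 13 UMIs or 17.8 CPM in 13 *spr-5; met-2* cells and 112 UMIs or 111 CPM in 50 Wild Type cells, a ratio of 0.161 (0.0830 to 0.286). RNA outside cells gave 28 UMIs in the mutants and 43 in Wild Type, a ratio of 0.460 (0.275 to 0.758). It is 1 of 4 *fbxb* genes in a row, and the other 3 were not below 1 beyond their intervals. *fbxb-101* had 113 UMIs in the mutants and 128 in Wild Type (ratio 1.22, 0.940 to 1.59), *fbxb-100* had 77 and 88 (1.21, 0.880 to 1.66) and *fbxb-93* had 7 and 12 (0.807, 0.269 to 2.22). The mutated gene *spr-5* lies 634 kb away on the same chromosome. From *spr-5* to 100 kb past *fbxb-56*, 74 genes had at least 5 UMIs, of which 6 (8.11%) were below 0.5-fold, beside 5.86% of all genes.

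The other 2 members with an interval below 1 were both *fbxc* genes of the array that holds *fbxc-51*. *fbxc-36* had 69 UMIs in the mutants and 132 in Wild Type, a ratio of 0.723 (0.533 to 0.975), and *fbxc-24* had 53 and 114, a ratio of 0.643 (0.455 to 0.899), which was 0.391 with each cell weighted equally. *fbxc-24* was also lower outside cells, at 0.491 (0.303 to 0.788), while *fbxc-36* was not, at 0.980 (0.669 to 1.45). The 6 lowest by the ranking rule also held *fbxc-52*, with a ratio of 0.654 (0.394 to 1.06), and *fbxb-74*, with 20 UMIs in the mutants and 46 in Wild Type and a ratio of 0.602 (0.337 to 1.04). *fbxb-74* adjoins *fbxb-75* on chromosome IV, which had 93 UMIs in the mutants and 58 in Wild Type, a ratio of 2.22 (1.58 to 3.14). These adjacent genes thus differed in direction, the first with an interval that holds 1.

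Members lay in the outer parts of chromosomes. Of the 135, 133 (98.5%) lay in the first or last 33.3% of their chromosome's length, where 57.6% of all genes with at least 5 UMIs did, and 77 (57.0%) lay on chromosome II, where 18.4% of all genes did. Of the 77 members on chromosome II, 39 (50.6%) were above 2-fold, where 31.8% of all genes of that chromosome and 30.4% of all genes of the outer parts were.

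A pair of arrays on chromosome II held 46 of the members. The first (868814 to 1049949) has 25 family genes, with 15 *fbxc* and 4 *fbxb* members. Its members had 1512 CPM in *spr-5; met-2* mutants and 1515 CPM in Wild Type, a ratio of 0.998 (0.923 to 1.08), with 5 of 19 above 2-fold. Without *fbxc-51* its ratio was 1.2 (1.10 to 1.32). The second (1536231 to 1863782) has 41 family genes, with 23 *fbxb* and 4 *fbxc* members. Its members had 800 CPM in the mutants and 330 CPM in Wild Type, a ratio of 2.43 (2.12 to 2.79), with 18 of 27 above 2-fold. Of all genes of chromosome II, 31.8% were above 2-fold.

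The arrays also differed within 1 family. The 4 *fbxb* members of the first array had a ratio of 1.67 (1.39 to 2.01) and the 23 of the second 2.47 (2.14 to 2.85), whose intervals do not overlap. The *fbxc* members had a ratio of 0.886 (0.811 to 0.966) in the first array and of 2.0 (1.19 to 3.40) in the second. The second array also held fewer UMIs per member, 586 in the mutants and 334 in Wild Type over 27 members, where the first had 1107 and 1535 over 19 members. The part of level in the difference between the arrays was not tested.

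**Figure D3:**
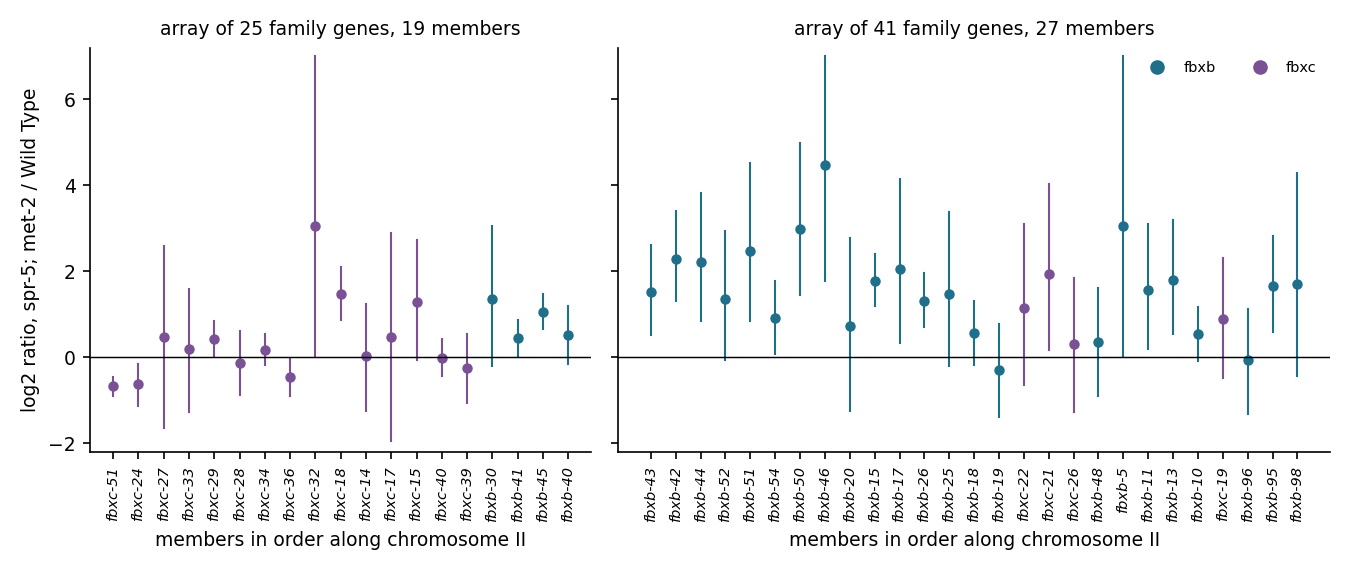
Log2 ratio of CPM, *spr-5; met-2* over Wild Type, of the members of both arrays, in their order along chromosome II. Points are ratios, bars the 95% counting intervals (ends beyond the axis are cut off), and the line marks equal CPM. In the array of 25 family genes 13 of 19 members had ratios above 1, and in that of 41 family genes 25 of 27 had. The share of all genes with ratios above 1 was not counted.

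Cells of both libraries were clustered together without the *fbxa*, *fbxb* and *fbxc* genes, so where the members' UMIs lie is independent of the clusters. They were highest in cluster 8, of 25 *spr-5; met-2* cells (3.64% of cells) and 7 Wild Type cells (3.20%). Its leading genes were *dsl-2*, *Y25C1A.6*, *lsy-27*, *sdz-9*, *F36H5.17*, *skr-9*, *btb-8*, *skr-10*, *sepa-1* and *vet-1*, and both neuron markers (3, *ngn-1*, *hlh-14* and *ztf-11*) and body wall muscle markers (2) were enriched in it, so it has no name here. The symbols *vet* and *sdz* stand for very early transcript and SKN-1-dependent zygotic transcript. *dsl-2* encodes a Notch ligand and *skr-9* and *skr-10* encode SKP1-related proteins.

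Members held 18199 CPM in cluster 8 in *spr-5; met-2* mutants and 12804 CPM in Wild Type. In the other cells they held 4106 CPM in the mutants and 3326 CPM in Wild Type. Cluster 8 was thus 4.43-fold (4.10 to 4.78) above the other cells in the mutants and 3.85-fold (3.46 to 4.27) in Wild Type. With 6.66% of all UMIs in the mutants and 3.11% in Wild Type, its cells held 24% of the members' UMIs in the mutants and 11% in Wild Type.

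The lowest of the 7 Wild Type cells of cluster 8 had 9269 CPM of members, and 1 of the other 212 Wild Type cells was above it. In the mutants cluster 8 ran between 5000 and 34965 CPM, with a median of 15013 CPM. Of the 661 other mutant cells, 190 were above the lowest cell of cluster 8 and 3 above its median. The groups of cells hardly overlapped in Wild Type, and overlapped more in the shallower mutant cells. When *skr*, *cul*, *rbx*, *btb*, *bath* and *math* genes were also kept out of the clustering, 28 mutant and 6 Wild Type cells formed the cluster, with 25 and 6 cells shared, and it was 4.35-fold and 3.89-fold above the other cells.

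**Figure D4:**
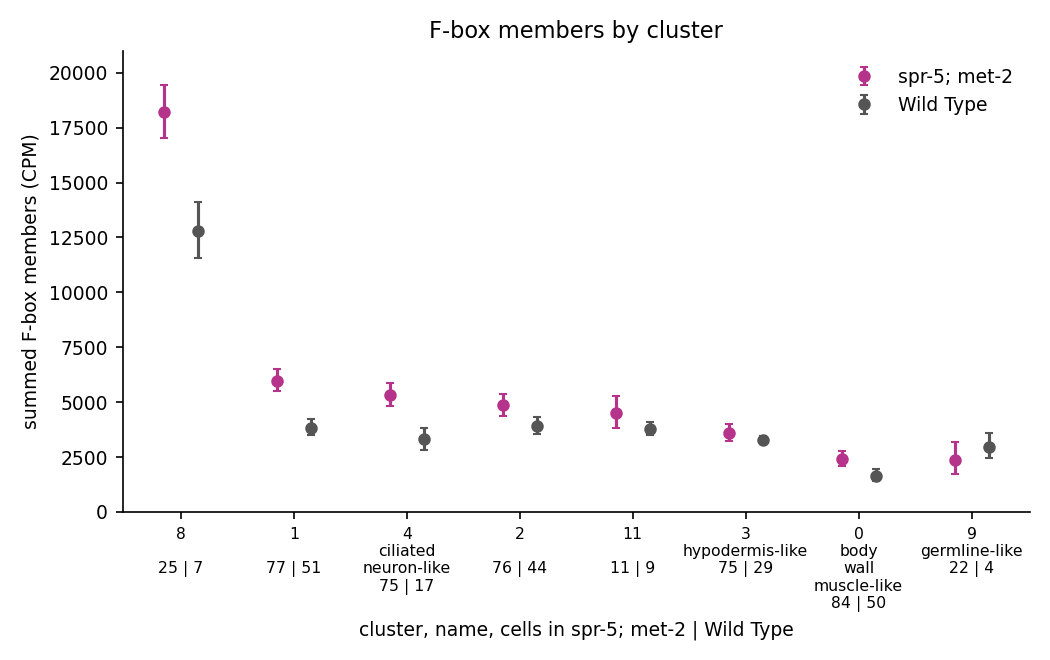
Summed CPM of the 135 members in each cluster with at least 4 cells of both genotypes, with 95% counting intervals, *spr-5; met-2* to the left of Wild Type and the number of cells under each name. Cluster 8 stands at 18199 CPM in the mutants and 12804 CPM in Wild Type, and the other clusters reach at most 5978 CPM.

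The concentration was also read gene by gene in both genotypes. Of the 49 members with at least 20 UMIs in *spr-5; met-2* mutants, 33 (67.3%) were more than 2-fold higher in cluster 8 than in other cells, where 11.7% of all genes were. Of the 36 with at least 20 UMIs in Wild Type, 24 (66.7%) were, where 10.8% of all genes were. The median ratio of members was 4.43 in the mutants and 4.01 in Wild Type, where that of all genes was 0.788 and 0.707. Among the 34 members with 20 UMIs in both libraries, 19 passed 2-fold in both and 9 in neither. The limit of 20 UMIs counts those of cluster 8 too, so a gene can pass it through that cluster. Over both libraries *fbxb-104* had 28 UMIs there. The limit was the same for all genes, but their shares were not matched for abundance, so these counts are a description.

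*fbxb-91* was the clearest case. Of its UMIs, 49 of 79 in the mutants and 23 of 53 in Wild Type came from cluster 8, and it was 22.9-fold and 23.9-fold above other cells. *fbxb-104* was 20.3-fold and 25.9-fold above them, *fbxb-10* 14.7-fold and 15-fold, *fbxb-75* 11.5-fold and 8.12-fold, and *fbxc-28* 9.64-fold and 11-fold. These ratios of the mutants and of Wild Type were close for each gene. By family, the summed *fbxb* members were 5.83-fold above other cells in the mutants and 5.27-fold in Wild Type, and *fbxc* members 2.59-fold and 2.43-fold. *fbxa* members were not set apart, at 1.40 (0.850 to 2.2) in the mutants and 0.724 (0.147 to 2.16) in Wild Type.

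**Figure D5:**
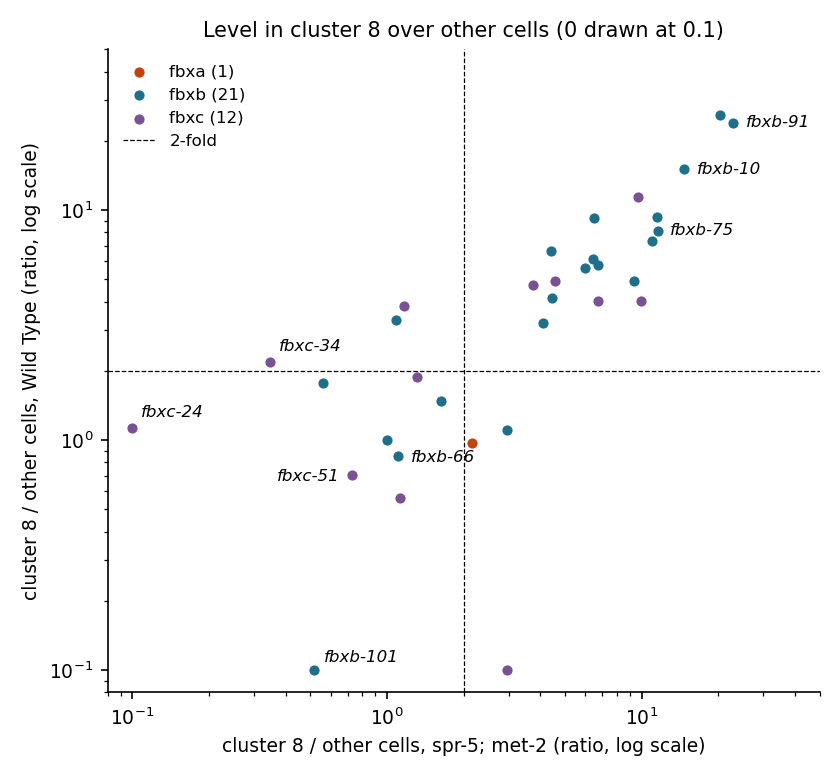
Level in cluster 8 over other cells for the 34 members with at least 20 UMIs in each library, *spr-5; met-2* (horizontal) and Wild Type (vertical), both log scale, with 0 drawn at 0.1. Dashed lines mark 2-fold. The 19 members in the upper right, with *fbxb-91* and *fbxb-104* furthest out, exceeded 2-fold in both genotypes, and *fbxc-51*, *fbxb-66*, *fbxc-24* and *fbxb-101* did so in neither.

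Several of the most abundant members were outside this pattern. *fbxc-51* was 0.725-fold (0.369 to 1.29) in cluster 8 relative to other cells in the mutants and 0.704-fold (0.362 to 1.24) in Wild Type. *fbxb-66* was highest in cluster 1, a cluster without a name led by *pha-2*, *K10D3.4* and *F59B10.3*, at 4.54-fold (3.63 to 5.67) above other cells in the mutants and 1.82-fold (1.34 to 2.44) in Wild Type. *fbxc-24* lay in cluster 0, body wall muscle-like, and cluster 2, which has 3 early muscle markers (*hnd-1*, *hlh-1*, *unc-120*) but no name. In these it was 10.8-fold (5.66 to 22) above the rest in the mutants and 4.63-fold (3.15 to 6.81) in Wild Type. *fbxc-34* was 2.45-fold and 2.12-fold higher in the same 2 clusters, but elsewhere it differed between genotypes. In cluster 8 it was at 0.348 (0.0707 to 1.04) of other cells in the mutants and at 2.19 (1.03 to 4.15) in Wild Type. In cluster 1 it was at 2.24 (1.44 to 3.39) in the mutants and at 0.604 (0.295 to 1.11) in Wild Type.

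The genotype ratio was also taken within clusters. It was 1.45 (1.17 to 1.81) in the body wall muscle-like cluster 0, 1.56 (1.37 to 1.77) in cluster 1, 1.24 (1.07 to 1.43) in cluster 2, 1.62 (1.35 to 1.94) in the ciliated neuron-like cluster 4 and 1.42 (1.26 to 1.60) in cluster 8. It was 1.10 (0.979 to 1.24) in the hypodermis-like cluster 3, and 1.19 (0.993 to 1.42) in cluster 11. With the 5 clusters of at least 10 cells in each genotype weighted equally, it was 1.39 (1.30 to 1.48) and above 1 in 5 of 5, and in the finer clustering at resolution 1.5 above 1 in 5 of 6. Ratios of all genes within clusters were not taken. Over all cells the median gene had a log2 ratio of 0.45, so these values do not set the members apart from other genes. At equal weights the families had 2.77 (2.02 to 3.79) for *fbxa*, 1.57 (1.43 to 1.72) for *fbxb* and 1.06 (0.948 to 1.18) for *fbxc*.

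Without cluster 8 the ratio of all members was 1.23 (1.17 to 1.30). Cluster 8 held a larger share of UMIs in the mutants, and the part of this share in the pooled ratio of 1.39 was not tested. Outside cluster 8, 51 members were above 2-fold, beside 31.1% of all genes, and 5 below 0.5-fold, beside 6.15%. Each of the 47 members with an interval above 1 still had a ratio above 1 there, 5 of them with no Wild Type UMI left, and for 25 of them the interval still lay above 1. These members were picked by their ratio over all cells, most of which lie outside cluster 8. Their side of 1 there was thus largely set by the choice, and all genes picked in the same way were not counted.

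The germline-like cluster 9 differed in make-up. It had 22 *spr-5; met-2* cells and 4 Wild Type cells, with 2385 CPM of members in the mutants and 2977 CPM in Wild Type, a ratio of 0.801 (0.554 to 1.14). *fbxa* members were at 985 CPM (593 to 1539) there in the mutants and 696 CPM (450 to 1027) in Wild Type, above the 316 and 130 CPM over all cells, while *fbxb* members were at 933 and 1252 CPM, below their 3231 and 1976 CPM. The ratio of all members there rested on 46 UMIs in the mutants and 107 in Wild Type, and a difference was not detectable at this depth, while that of *fbxc* members was 0.453 (0.192 to 0.956). Over all cells, the 10 germline markers, 9 of them with at least 5 UMIs, summed to 255 CPM in the mutants and 95.7 CPM in Wild Type. Without this cluster the *fbxa* ratio between genotypes was 2.72.

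Counted as they are, 87.0% (84.3 to 89.4) of *spr-5; met-2* cells and 92.7% (88.4 to 95.8) of Wild Type cells had a member UMI. With each cell thinned to 500 UMIs, which left out 162 mutant cells and no Wild Type cell, the shares were 79.0% (75.3 to 82.4) in the mutants and 74.9% (68.6 to 80.5) in Wild Type. The intervals overlap, so no difference in share was detectable. In the body wall muscle-like cluster 0, the lowest of the larger clusters, thinned shares were 69.2% (57.8 to 79.2) in the mutants and 44% (30 to 58.7) in Wild Type, with median depths of 874 and 1476 UMIs. In cluster 8 all 24 mutant and 7 Wild Type cells deep enough for thinning had a member UMI.

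RNA outside cells held as much of the members as the cells did, 5128 CPM in *spr-5; met-2* mutants and 3722 CPM in Wild Type. Cells were at 0.984 (0.941 to 1.03) of it in the mutants and 0.973 (0.922 to 1.03) in Wild Type. Cluster 8 was 3.55-fold (3.30 to 3.82) above it in the mutants and 3.44-fold (3.09 to 3.83) in Wild Type, the other cells were at 0.801 and 0.894 of it, and the body wall muscle-like cluster 0 at 0.469 and 0.444. Single member UMIs in cells outside cluster 8 therefore cannot be told apart from free RNA. Between genotypes, free RNA had a ratio of 1.38 (1.31 to 1.45) for all members, beside 1.39 in cells. By family it was 1.94 (1.54 to 2.48) for *fbxa*, 1.49 (1.39 to 1.60) for *fbxb* and 1.12 (1.02 to 1.22) for *fbxc*, beside 2.42, 1.63 and 0.989 in cells.

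The partners of F-box proteins in the ligase were read from a list of SKR, cullin and RING genes. Of its 23 genes in the files, 19 had at least 5 UMIs, with 2899 CPM in *spr-5; met-2* mutants and 2161 CPM in Wild Type, a ratio of 1.34 (1.26 to 1.42). Of the 19, 4 were above 2-fold and 1 below 0.5-fold, where 31.3% and 5.86% of all genes were. *skr-1*, the main SKP1 of the worm, had 702 UMIs or 959 CPM in the mutants and 488 UMIs or 482 CPM in Wild Type, a ratio of 1.99 (1.77 to 2.24). Its paralog *skr-2* had a ratio of 2.32 (1.49 to 3.66), with 57 UMIs in the mutants and 34 in Wild Type, and *skr-17* had 13 and 6 UMIs, a ratio of 3.0 (1.06 to 9.62). *cul-1*, the cullin of SCF, was at 1.57 (1.09 to 2.25), and *rbx-1*, which recruits the E2 enzyme, at 0.923 (0.735 to 1.16).

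The *skr* genes differed in where they lay. *skr-7*, *skr-8*, *skr-9*, *skr-10*, *skr-13* and *skr-14* together had 6648 CPM in cluster 8 and 486 CPM in other cells in the mutants, 13.7-fold (11.7 to 16), and 7416 and 473 CPM in Wild Type, 15.7-fold (13.4 to 18.4). *skr-1* was even between cluster 8 and other cells, at 1.05 (0.770 to 1.41) in the mutants and 1.19 (0.700 to 1.90) in Wild Type. The first set had helped to form the cluster. In the clustering without *skr* genes its ratios were 13.3 and 16.1. Between genotypes, *skr-9* was at 3.09 (1.91 to 5.11), with 58 UMIs in the mutants and 26 in Wild Type, while *skr-7* was at 1.11 (0.943 to 1.31). *skr-20* was the gene below 0.5-fold, with 23 and 75 UMIs, at 0.424 (0.254 to 0.685).

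Of 13 F-box genes with other names, 11 had at least 5 UMIs, with a summed ratio of 1.56 (1.35 to 1.80). Of these 11, 6 were above 2-fold and none below 0.5-fold, where 31.3% and 5.86% of all genes were. *fog-2*, which acts in the switch to sperm in hermaphrodites, had 21 UMIs in the mutants and 4 in Wild Type, a ratio of 7.27 (2.45 to 29.1). Its relative *ftr-1*, also picked for RT-PCR, had 18 and 8 UMIs, a ratio of 3.11 (1.29 to 8.28). *sel-10*, the Fbw7 of the worm, was at 2.18 (1.44 to 3.33) and *fbxl-1* at 2.11 (1.21 to 3.73). *lin-23*, the worm beta-TrCP, was at 1.99 (1.43 to 2.78), and *mec-15* was lower, at 0.604 (0.358 to 0.992). These genes were not concentrated in cluster 8, where they summed to 492 CPM beside 572 CPM in other cells in the mutants and 222 beside 369 CPM in Wild Type.

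Family genes can share sequence. Sequence identity between the members was not analysed here, so counts of close neighbours in arrays may be split between them. Of the 135 members, 8 overlap another gene on the same strand, among them *fbxc-20* and *fbxb-83*.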

How the data were processed

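Transcripts were captured from single embryonic cells, 1 library per genotype. The authors aligned reads with Cell Ranger 3.0.2 and build ce11, per the labels, and used Seurat (version not given in the sources used here) after that. The deposited values are raw UMI counts per gene and barcode, unfiltered and not normalized. The 686 and 219 barcodes with the highest UMI totals, numbers given in the labels, were taken as cells. A tie at 411 UMIs left out 2 mutant barcodes. CPM has exact Poisson intervals, ratios (*spr-5; met-2* over Wild Type) exact conditional binomial intervals and shares Clopper-Pearson intervals at 95%, all covering counting error only. A library at 0 was set to 3 UMIs.

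Clusters were made in scanpy 1.11.5 with anndata 0.12.19, igraph 0.11.9 and Python 3.11.15 from 2000 variable genes, 20 components, 15 neighbours and resolution 1, without *fbxa*, *fbxb* and *fbxc* genes and genes the study had picked out, and named where at least 3 markers of 1 type were enriched, more than of any other type, and either over 1.5 times those of the next type or with at least 2 of them among the 10 leading genes. Scrublet doublets (2 mutant and 11 Wild Type cells) were kept, and none lay in cluster 8. Free RNA came from barcodes with at most 200 UMIs. Positions came from Ensembl release 115. Arrays join family genes at most 50000 bases apart. The ratio code was tested on simulated data.

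Members and lists were chosen with earlier results of these data known. Named are the 12 most abundant members and the 6 highest and 6 lowest by ratio with a pseudocount of 10 CPM. Members whose interval excludes 1 (some only counted) and *fbxa-101* are named too. From other lists, some of the genes above 2-fold or below 0.5-fold with an interval that excludes 1 are named. Further genes of those lists that met this limit are not named. Genes named for their level by cluster or as neighbours, and *skr-7*, *lin-23*, *mec-15*, *cand-1*, *ned-8* and *bath-10*, were chosen after their values were seen. Alternatives were other cell sets, scalings, weights, clusterings, thresholds and free RNA limits.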

Additional observations from a re-analysis of the deposited data

How the results depend on the processing

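The summed ratio of the members was between 1.02 and 1.53 over the alternatives run, and with the median scaling it hardly differed from 1. It left its counting interval with the median scaling (1.02), with cells weighted equally (1.31), without cluster 8 (1.23) and without *fbxc-51* (1.53). The last 2 were chosen after seeing the data. The median scaling gave 1.77 for *fbxa*, 1.2 for *fbxb* and 0.724 for *fbxc*. *fbxb* was at 1.51 with cells weighted equally and at 1.40 without cluster 8, and *fbxc* at 1.19 without *fbxc-51*. Members below 0.5-fold were 9 with the median scaling, 6 with cells weighted equally, 5 without cluster 8 and 1 of those with at least 10 UMIs, in place of 3. Thinned to 250 UMIs, 59.5% of mutant and 51.6% of Wild Type cells had a member UMI. Against barcodes with at most 100 UMIs the mutant cells were at 0.841 of free RNA. Of the 58 members named by rule, ratios moved beyond their interval for 9 with the median scaling, which also turned *fbxc-29* to 0.984, for 6 without Wild Type cells above 10000 UMIs, for 3 with cells weighted equally, for 3 without cluster 8 and for 1 without the germline-like cluster. The median scaling also put *fbxc-34* (0.827), *fbxb-101* (0.894), *fbxb-41* (0.991) and *fbxb-100* (0.886), whose intervals hold 1, below 1. With 0.5 times the number of cells *fbxb-101* was at 0.998 and *fbxc-40* at 1.07. Weighting clusters equally gave 1.34 at resolution 0.5 and 1.38 (*fbxa* 2.12, *fbxb* 1.67, *fbxc* 0.965) in 6 clusters at resolution 1.5. With at least 15 cells of each genotype as well, chosen after seeing the data, 4 clusters at resolution 1.5 gave 1.53 (*fbxa* 1.84, *fbxb* 1.85, *fbxc* 1.11). No paired analysis was possible because each genotype has 1 library. Few UMIs per member limit the precision: most members have wide intervals, and members in cells outside cluster 8 lie below their level in free RNA.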

Other observations

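Genes of the *math* and *bath* families encode proteins with a MATH domain, in *bath* genes with a BTB domain, which are adaptors of cullin 3 ligases where tested. Of 79 such genes, 24 had at least 5 UMIs, and they summed to 1508 CPM in *spr-5; met-2* mutants and 1021 CPM in Wild Type, a ratio of 1.48 (1.36 to 1.61). Above 2-fold were 13 of the 24 and below 0.5-fold none, where 31.3% and 5.86% of all genes were. *bath-39* had 46 UMIs in the mutants and 15 in Wild Type, a ratio of 4.24 (2.33 to 8.18), *math-4* had 23 and 7 (4.55, 1.89 to 12.5) and *bath-2* had 20 and 3 (9.23, 2.74 to 48.5). *bath-30* had 18 and 6 (4.15, 1.58 to 12.8). *bath-10* was lower, at 0.742 (0.574 to 0.954). These genes did not share the cells of the F-box members: cluster 8 held 1313 CPM of them beside 1522 CPM in other cells in the mutants, and 983 beside 1022 CPM in Wild Type.

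Genes of the neddylation cycle and the COP9 signalosome, which switch cullin ligases on and off, differed less between genotypes. All 12 had at least 5 UMIs, with 948 CPM in *spr-5; met-2* mutants and 931 CPM in Wild Type, a ratio of 1.02 (0.922 to 1.12). None was above 2-fold or below 0.5-fold, where 31.3% and 5.86% of all genes were. *cand-1*, which exchanges F-box proteins on CUL-1, was at 1.60 (1.26 to 2.04) and *ned-8*, the ubiquitin-like modifier of cullins, at 0.659 (0.476 to 0.903). The list was higher in cluster 8, where it summed to 2154 CPM beside 862 CPM in other cells in the mutants and 2028 beside 895 CPM in Wild Type.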
